A study of Mus musculus with 10 samples.

Results

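Efna1, the gene of the ligand ephrin-A1, stood higher in glucagon-treated than in PBS-treated primary mouse hepatocytes in all 3 hairpin arms, by 2.02-fold in shWDR5 cells, 1.44-fold in shKAT2B cells and 3.16-fold in shNS cells. It is described here with 8 other genes of its family: the ligands Efna5, Efnb1 and Efnb2 and the receptors Epha1, Epha2, Epha4, Ephb3 and Ephb4. The 9 genes were named for their family and chosen by their intensities in these same libraries, Efna1 for its difference between glucagon and PBS, so glucagon differences of the 9 genes are given as a description with no test. Each of the 9 genes had 1 array feature that carried its symbol alone, among 16401 genes on the array. Of the 9, 7 were among the 11480 genes kept for testing after the lowest 30 percent of genes by mean level were left out, and Epha1 and Ephb3 were not.

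The hepatocytes came from male C57BL6/J mice of 10 weeks and were transduced for 72 h with adenovirus at 2 to 4 plaque-forming units per cell. The virus carried a short hairpin RNA against Wdr5 (shWDR5), one against Kat2b (shKAT2B) or a non-specific one (shNS), and the cells then received 100 nM glucagon or phosphate-buffered saline (PBS) for 90 min. WDR5 is a core subunit of histone methyltransferase complexes, KAT2B is a histone acetyltransferase, and glucagon is a hormone of fasting that acts on liver cells through cyclic AMP. The 10 libraries, each a pool of 3 dishes, formed 6 groups: 2 libraries (A and B) each of shWDR5 glucagon, shKAT2B glucagon, shNS glucagon and shNS PBS, and 1 library (A) each of shWDR5 PBS and shKAT2B PBS. All groups, shNS included, had received virus, so untransduced cells were not compared, and 1 hairpin per target is named. RNA was measured on Affymetrix Mouse Gene arrays, and levels are the deposited linear intensities, which rank libraries for 1 gene but do not rank genes against each other.

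Ephrins are ligands held on the cell surface, the A class by a lipid anchor and the B class by a membrane-spanning segment, and they bind Eph receptor tyrosine kinases on a neighbouring cell. Signals run forward into the receptor-bearing cell and in reverse into the ephrin-bearing cell, mostly toward the actin cytoskeleton and cell adhesion. The family is best known for setting tissue boundaries and for guiding axons and blood vessels, where ephrin-B2 marks arterial and EphB4 venous endothelium.

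Because glucagon acts on transcription through cyclic AMP and the factor CREB, the promoters of the 9 genes were searched for the full cAMP response element, TGACGTCA, and for its shorter core, TGACG, on both strands (CGTCA on the other). Each of 10 windows, credited to RefSeq on the mouse build GRCm38.p6, ran from 250 bases before to 50 bases after an annotated start; Efna1 had 2 starts. The 250 bases before the start are shown, in the direction of transcription, for both starts of Efna1, the member with the largest glucagon difference, and for Epha2, the 1 member with a full element, which is in capitals.
Efna1, first start, chr3:89280952-89281201, minus strand: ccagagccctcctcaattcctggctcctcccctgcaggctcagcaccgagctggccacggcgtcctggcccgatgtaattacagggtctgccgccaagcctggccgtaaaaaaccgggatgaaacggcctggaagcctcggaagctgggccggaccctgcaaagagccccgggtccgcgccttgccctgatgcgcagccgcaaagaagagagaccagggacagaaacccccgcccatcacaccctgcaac
Efna1, second start, chr3:89279646-89279895, minus strand: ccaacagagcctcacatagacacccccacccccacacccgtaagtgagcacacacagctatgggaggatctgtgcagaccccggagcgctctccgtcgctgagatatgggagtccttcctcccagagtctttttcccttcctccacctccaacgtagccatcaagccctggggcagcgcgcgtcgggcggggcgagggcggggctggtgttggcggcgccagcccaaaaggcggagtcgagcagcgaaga
Epha2, chr4:141300971-141301220, plus strand: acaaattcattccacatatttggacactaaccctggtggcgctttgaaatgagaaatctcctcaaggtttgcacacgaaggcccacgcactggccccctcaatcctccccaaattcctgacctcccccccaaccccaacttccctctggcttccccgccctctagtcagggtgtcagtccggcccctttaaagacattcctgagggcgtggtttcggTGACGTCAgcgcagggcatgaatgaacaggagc
The first base of the full element lay at position -33 from the start of Epha2, and 1.79% of all 32851 RefSeq promoter windows of the same length held one. The core without a full element lay in the windows of 4 members, Efnb1, Efnb2, Epha4 and Ephb3, and 20.8% of all windows held the core. These letters were not found in either window of Efna1, nor in those of Efna5, Epha1 and Ephb4. Efna1, whose windows held no match, stood higher under glucagon in each arm, and Epha2, with the full element, stood lower in each arm, as given below. The search covered these exact letters in windows of 300 bases only, and a link between a match and the glucagon difference was not tested.

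Before the levels, a split among the libraries has to be described. After arm and treatment were fitted, the leading component of what was left held 78 percent of the residual variance. It separated 4 libraries, shWDR5 glucagon A, shKAT2B glucagon A, shNS glucagon A and shNS PBS A (the first library set), from the other 6 (the second set), which hold 1 library of each group. The lone PBS libraries of both knockdown arms lie in the second set, so within those arms only glucagon library B can be compared with PBS inside 1 set. Summed markers of stellate cells and fibroblasts (9 of 9 on the array) were 8379 to 8703 in the first set and 5642 to 6432 in the second; Kupffer cell and leukocyte sums (10 of 11 names on the array, of which Adgre1 and Emr1 are names of 1 gene) were 5594 to 6664 and 7993 to 10964. Endothelial sums (10 of 10) were 4419 to 5006 in the first set and 5459 to 7199 in the second, bile duct sums (5 of 6) 4051 to 5083 and 2589 to 4156, and hepatocyte sums (9 of 10) 39144 to 49074 and 39746 to 51728. Sums of linear intensities are set mostly by their brightest genes and can hide dimmer ones. In shNS PBS A, Acta2 gave 5043 of the stellate cell and fibroblast sum of 8379. Trf (16271) and Alb (12855) gave most of the hepatocyte sum of 46080 in that library. The lowest intensity in the whole table was 4.47, so no marker could be listed at 0 and dim ones may be background. In pooled RNA fewer cells of a type and less RNA per cell cannot be told apart. The targets matched the labels: Wdr5 was 292 to 338 in the 3 shWDR5 libraries and 1010 to 1075 in the 7 others, and Kat2b was 95.7 to 121 in the 3 shKAT2B libraries and 676 to 771 in the 7 others.

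Efna1 had intensities of 1978 and 2077 (libraries A and B) in shWDR5 glucagon, against 1003 in shWDR5 PBS. In shKAT2B cells it had 1489 and 1468 with glucagon, against 1024 with PBS. In shNS cells it had 2817 and 2504 with glucagon, against 867 and 815 with PBS. Every glucagon library lay above every PBS library, and the 3 glucagon groups did not overlap: shNS was highest, shWDR5 came next and shKAT2B was lowest. Means were 2027 ± 69.5 in shWDR5 glucagon, 1479 ± 14.5 in shKAT2B glucagon, 2661 ± 221 in shNS glucagon and 841 ± 37.1 in shNS PBS (SD, n = 2 each).

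**Figure D1:**
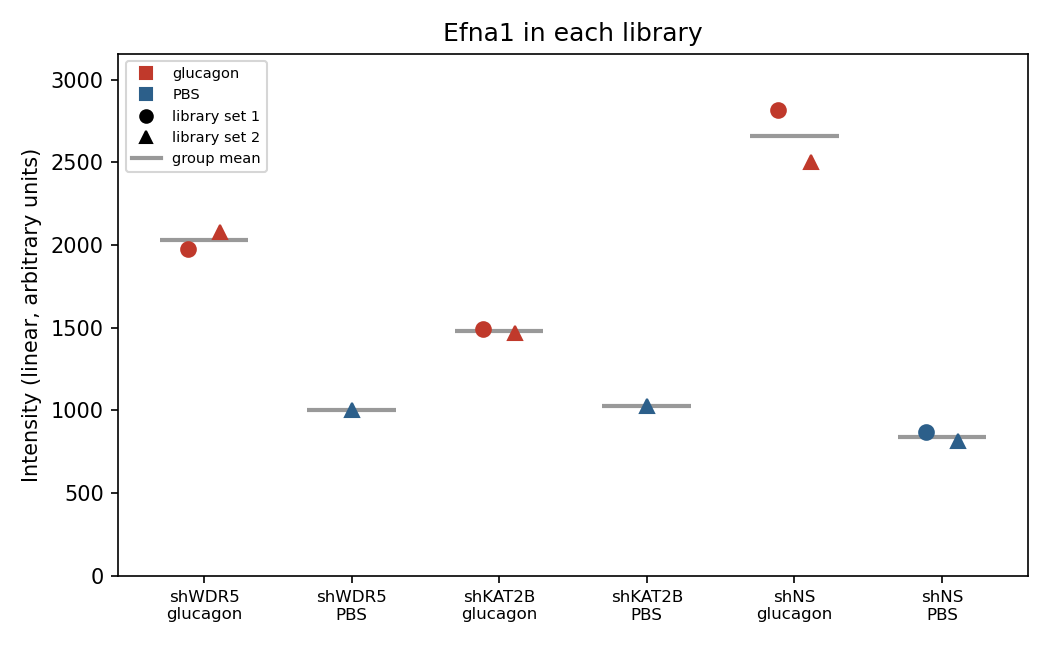
Intensity of Efna1 in each library (vertical axis, linear scale) by group, with a grey line at the group mean (at the single value where there is 1 library), glucagon in red and PBS in blue, circles for the first library set and triangles for the second. The 6 glucagon libraries lie between 1468 and 2817 and the 4 PBS libraries between 815 and 1024, with shKAT2B glucagon the lowest of the glucagon groups.

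On the log2 scale (log2 of intensity plus 1), the difference of Efna1 between glucagon and PBS was 1.01 in shWDR5 cells, 0.53 in shKAT2B cells and 1.66 in shNS cells. The arms were as far apart inside 1 library set, where glucagon B minus PBS was 1.05 in shWDR5 cells and 0.52 in shKAT2B cells, and the 2 shNS pairs gave 1.70 (A) and 1.62 (B). Of the 11480 genes kept, 25 had a larger rise in shWDR5 cells, 125 in shKAT2B cells and 13 in shNS cells. These ranks describe the libraries, since Efna1 was chosen for this response.

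The hairpins stood on opposite sides of shNS for Efna1 under the 2 treatments. With glucagon, the shWDR5 libraries lay 0.51 (A) and 0.27 (B) below the shNS library of the same letter, and the shKAT2B libraries lay 0.92 and 0.77 below it, all as log2 differences. With PBS, the single shWDR5 library lay 0.30 above shNS PBS B, the library of its own set, and 0.21 above shNS PBS A, and the single shKAT2B library lay 0.33 and 0.24 above them. Each PBS difference rests on 1 knockdown library, so it has no replicate check. Over both treatments the fitted hairpin difference of Efna1 was -0.09 ± 0.20 (SE) for shWDR5 minus shNS and -0.38 ± 0.20 for shKAT2B minus shNS, given with no test because its levels in the 3 arms entered its choice. An average of differences that run opposite ways under the 2 treatments does not describe either of them. The shKAT2B value rested on the lone PBS library: without it the difference was -0.72, from glucagon-treated knockdown cells alone.

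The other ligands did not share the pattern of Efna1. Efnb2, a B-class ligand that marks arterial vessels, had 1552 and 1243 in shWDR5 glucagon, against 1479 in shWDR5 PBS. In shKAT2B cells Efnb2 had 917 and 671 with glucagon, against 996 with PBS, and in shNS cells 639 and 568 with glucagon, against 949 and 861 with PBS. Only in the shKAT2B and shNS arms did every glucagon library lie below every PBS library. Inside 1 library set Efnb2 stood lower with glucagon in each arm, by log2 differences of -0.25 in shWDR5, -0.57 in shKAT2B, and -0.57 and -0.60 in shNS. Whether these differences differ between arms was not tested.

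Efna5, an A-class ligand known from axon guidance, had 709 and 440 in shWDR5 glucagon, against 440 in shWDR5 PBS. It had 393 and 214 in shKAT2B glucagon, against 217 in shKAT2B PBS, and 452 and 329 in shNS glucagon, against 501 and 302 in shNS PBS. In each group with 2 libraries, library A was higher than library B, by 0.69 ± 0.17 on the log2 scale (SD, n = 4 groups). The arm means therefore gave glucagon differences of 0.34 in shWDR5, 0.42 in shKAT2B and -0.02 in shNS, while inside 1 set they were 0.00 in shWDR5, -0.02 in shKAT2B, and -0.15 and 0.12 in shNS. Within a set Efna5 showed no common direction with glucagon.

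Efnb1, the other B-class ligand, had 709 and 588 in shWDR5 glucagon, against 685 in shWDR5 PBS, and 724 and 560 in shKAT2B glucagon, against 605 in shKAT2B PBS. In shNS cells Efnb1 had 676 and 534 with glucagon, against 838 and 630 with PBS. The groups overlapped in all 3 arms, and library A was again the higher in all 4 pairs, by 0.35 ± 0.06 on the log2 scale (SD). Inside 1 set the log2 differences of Efnb1 were all negative, at -0.22 in shWDR5, -0.11 in shKAT2B, and -0.31 and -0.24 in shNS.

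Among the receptors, Epha4, which binds ephrins of both classes, stood higher with glucagon. It had 1176 and 781 in shWDR5 glucagon, against 545 in shWDR5 PBS, 955 and 576 in shKAT2B glucagon, against 391 in shKAT2B PBS, and 584 and 428 in shNS glucagon, against 468 and 315 in shNS PBS. In both knockdown arms the glucagon libraries lay above the PBS library, and in shNS cells the groups overlapped. Library A exceeded B by 0.58 ± 0.11 on the log2 scale (SD, n = 4 groups), so arm means (0.81 in shWDR5, 0.92 in shKAT2B, 0.38 in shNS) mix treatment with library set. Inside 1 set the glucagon differences of Epha4 were 0.52 in shWDR5, 0.56 in shKAT2B, and 0.32 and 0.44 in shNS. Epha4 was higher in library A, as the summed stellate cell and fibroblast markers were in the first set, and the part of those cells in its level was not tested.

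Epha2, a main receptor for ephrin-A1 in epithelial cells, had 1795 and 1510 in shWDR5 glucagon, against 1872 in shWDR5 PBS. It had 1846 and 1795 in shKAT2B glucagon, against 2006 in shKAT2B PBS, and 1585 and 1458 in shNS glucagon, against 2034 and 1746 in shNS PBS. Every glucagon library lay below the PBS libraries of its own arm. The differences inside 1 set were small, at -0.31 in shWDR5, -0.16 in shKAT2B, and -0.36 and -0.26 in shNS on the log2 scale, beside an A minus B difference of 0.16 ± 0.10 (SD). The ligand and this receptor thus stood on opposite sides of PBS in each arm, Efna1 higher and Epha2 lower.

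The remaining receptors differed little between treatments. Ephb4, a receptor for ephrin-B2, ranged from 776 to 898 in the 6 libraries of the knockdown arms and from 662 to 755 in the 4 shNS libraries, with glucagon differences inside 1 set of 0.01 in shWDR5, 0.07 in shKAT2B, and 0.19 and 0.02 in shNS. Epha1 was between 56.5 and 85.6 and Ephb3 between 86.8 and 115 in all 10 libraries. Epha1 lay above 9.88% of genes by mean intensity and Ephb3 above 19.8%, which put both below the filter. Their log2 differences inside 1 set, -0.05 to 0.22 for Epha1 and 0.09 to 0.34 for Ephb3, are those of dim features.

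**Figure D2:**
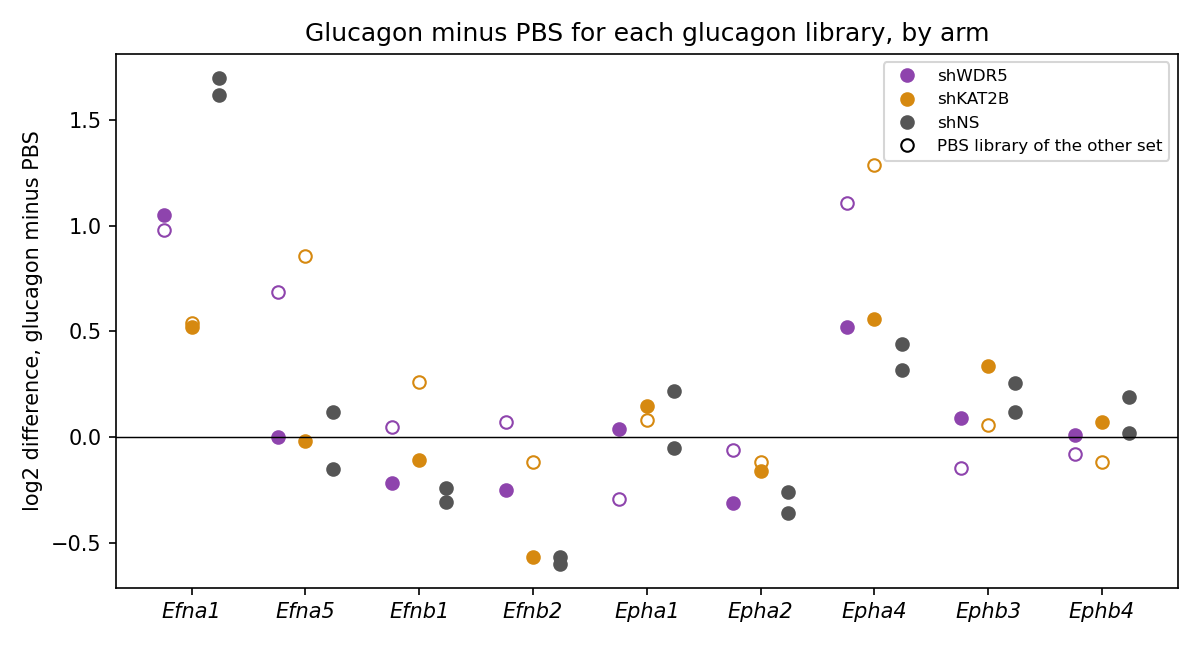
Log2 difference between each glucagon library and PBS for the 9 genes (vertical axis), coloured by arm, with filled circles for pairs inside 1 library set and open circles for pairs across sets. Efna1 is the member with the widest spread between arms, 0.52 to 1.70, and the cross-set points of Efna5 and Epha4 lie above their points inside 1 set.

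The hairpin comparisons over both treatments were tested in 1 additive model of arm and treatment over all 10 libraries, with Benjamini-Hochberg adjustment over the 11480 genes and a threshold of 0.05. Efna1 is among the 7 members counted, although its levels in the arms entered its choice. For shWDR5 minus shNS, 1 of the 7 members kept passed, Efnb2, against 10.9% of all genes. Efnb2 had 1552, 1243 and 1479 in the shWDR5 libraries (glucagon A, glucagon B and PBS), against 639, 568, 949 and 861 in the shNS libraries (glucagon A and B, then PBS A and B). All 3 shWDR5 libraries lay above all 4 shNS libraries, and the fitted difference was 1.004 ± 0.14 (log2, SE; limma adjusted p = 0.00465). This value averages over treatments: with glucagon the log2 differences were 1.28 (A) and 1.13 (B). The single shWDR5 PBS library lay 0.78 above shNS PBS B and 0.64 above shNS PBS A. The call held when any of the 10 libraries was left out, with differences from 0.88 to 1.16 and limma adjusted p from 0.00385 to 0.0229. Endothelial markers, the cells in which ephrin-B2 is best known, had sums of 5006 to 6600 in shWDR5 glucagon and 6432 in shWDR5 PBS, against 4419 to 6158 in shNS glucagon and 4430 to 5459 in shNS PBS. Of the 10 endothelial markers 0 passed for shWDR5 in this limma fit (1 had an unadjusted p below 0.05), and all 10 had positive differences with a median of 0.25. With the library set as a further term all 10 were again positive, with a median of 0.15, and 2 passed, against 36.8% of all genes. The part of endothelial cells in the Efnb2 difference was not tested.

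**Figure D3:**
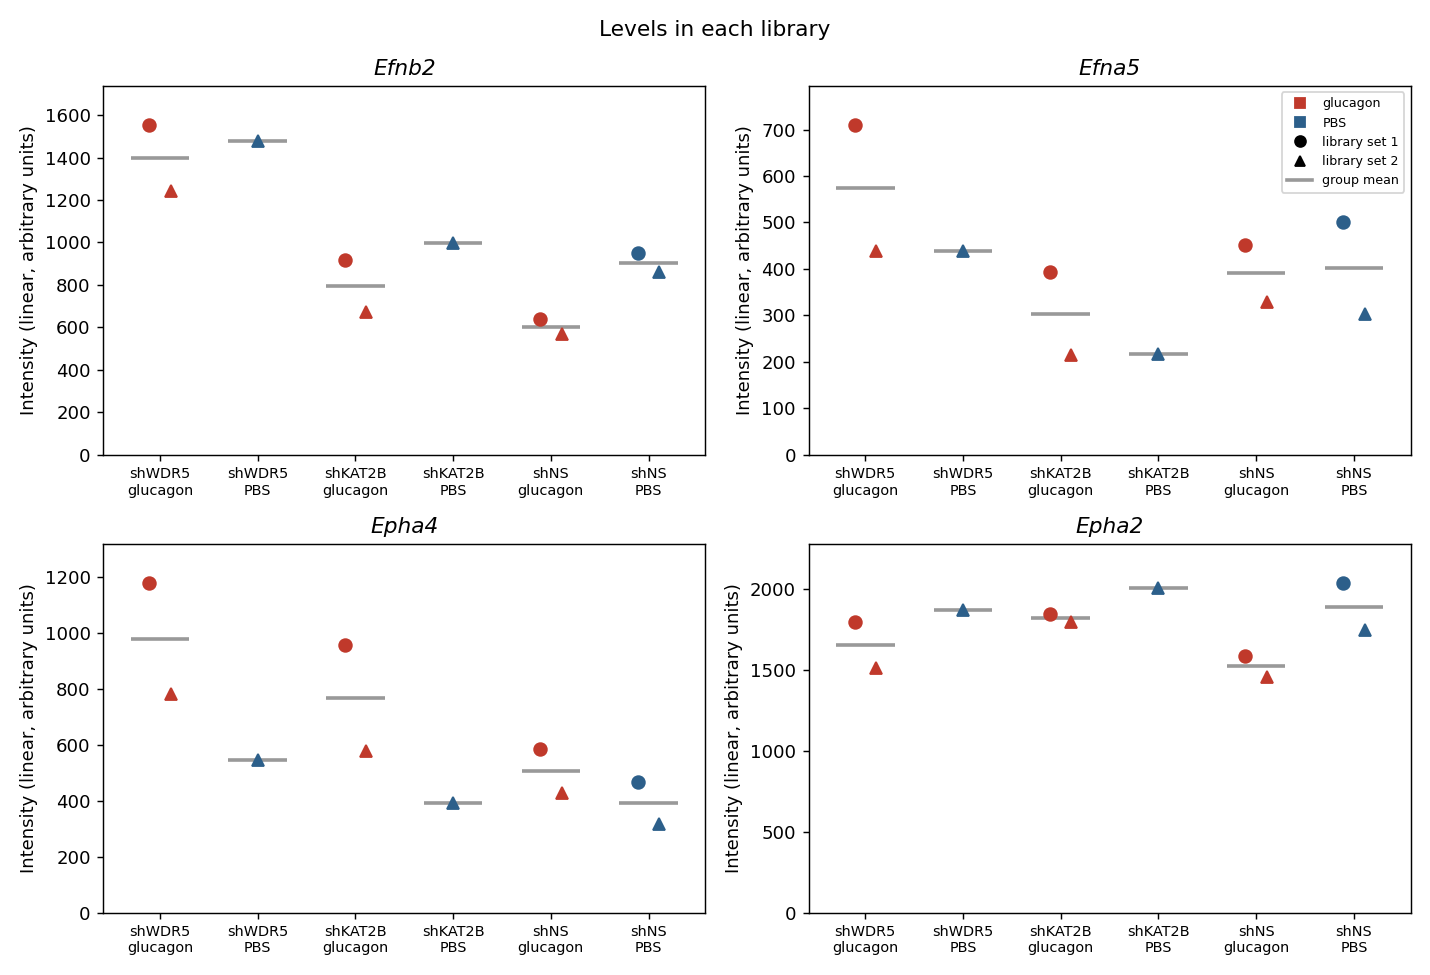
Intensity of Efnb2, Efna5, Epha4 and Epha2 in each library (vertical axes, linear scale), by group, with grey lines at group means, circles for the first library set and triangles for the second. Efnb2 is 1243 to 1552 in the 3 shWDR5 libraries, above all others, and Efna5 and Epha4 separate by library set within each group of 2.

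Other members stood higher or lower in shWDR5 cells without passing. Epha4 differed by 0.75 ± 0.24 (log2, SE; limma adjusted p = 0.0857), Efna5 by 0.38 ± 0.27 (adjusted p = 0.436) and Ephb4 by 0.18 ± 0.07 (adjusted p = 0.166). Epha4 passed when shNS PBS A (adjusted p = 0.0483) or shKAT2B glucagon A (adjusted p = 0.0442) was left out. Efnb1 (0.02 ± 0.15) and Epha2 (0.06 ± 0.08) lay near 0 with SEs larger than the differences. The median over the 7 members was 0.18, beside -0.01 over all genes tested.

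For shKAT2B minus shNS, 0 of the 7 members passed in the limma fit, against 15.6% of all genes, and 1 member had an unadjusted p below 0.05. That member, Ephb4, had 787, 898 and 855 in the shKAT2B libraries (glucagon A, glucagon B and PBS), against 755, 719, 662 and 709 in the shNS libraries (glucagon A and B, then PBS A and B). The shKAT2B libraries all lay above the shNS libraries, with a fitted difference of 0.25 ± 0.07 (log2, SE; limma adjusted p = 0.0543), and the gene passed without shKAT2B glucagon A (adjusted p = 0.0259). Efna5 differed by -0.59 ± 0.27 (adjusted p = 0.191), Epha4 by 0.34 ± 0.24 (adjusted p = 0.403), Efnb2 by 0.26 ± 0.14 (adjusted p = 0.267), Epha2 by 0.19 ± 0.08 (adjusted p = 0.173) and Efnb1 by -0.06 ± 0.15 (adjusted p = 0.843). The median over the members was 0.19, beside 0.01 over all genes. Epha1 and Ephb3, fitted with no filter on level, gave -0.19 ± 0.11 and -0.05 ± 0.10 for shWDR5 and -0.04 ± 0.11 and 0.02 ± 0.10 for shKAT2B (SE; limma adjusted p from 0.384 to 0.932).

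The library set bore on these counts. With the set as a further term, 4 of 7 members passed for shWDR5, all higher: Efnb2 at 1.07 ± 0.08, Epha4 at 0.88 ± 0.07, Efna5 at 0.53 ± 0.07 and Ephb4 at 0.16 ± 0.06 (log2, SE). The background grew as well, to 36.8% of all genes. For shKAT2B 5 of 7 passed with the set term, against 41.5% of all genes: Efna5 was lower at -0.44 ± 0.07, and Epha4 (0.47 ± 0.07), Efnb2 (0.33 ± 0.08), Ephb4 (0.23 ± 0.06) and Epha2 (0.22 ± 0.05) were higher. The set was read from the same libraries, so its fit has p-values that are too small.

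**Figure D4:**
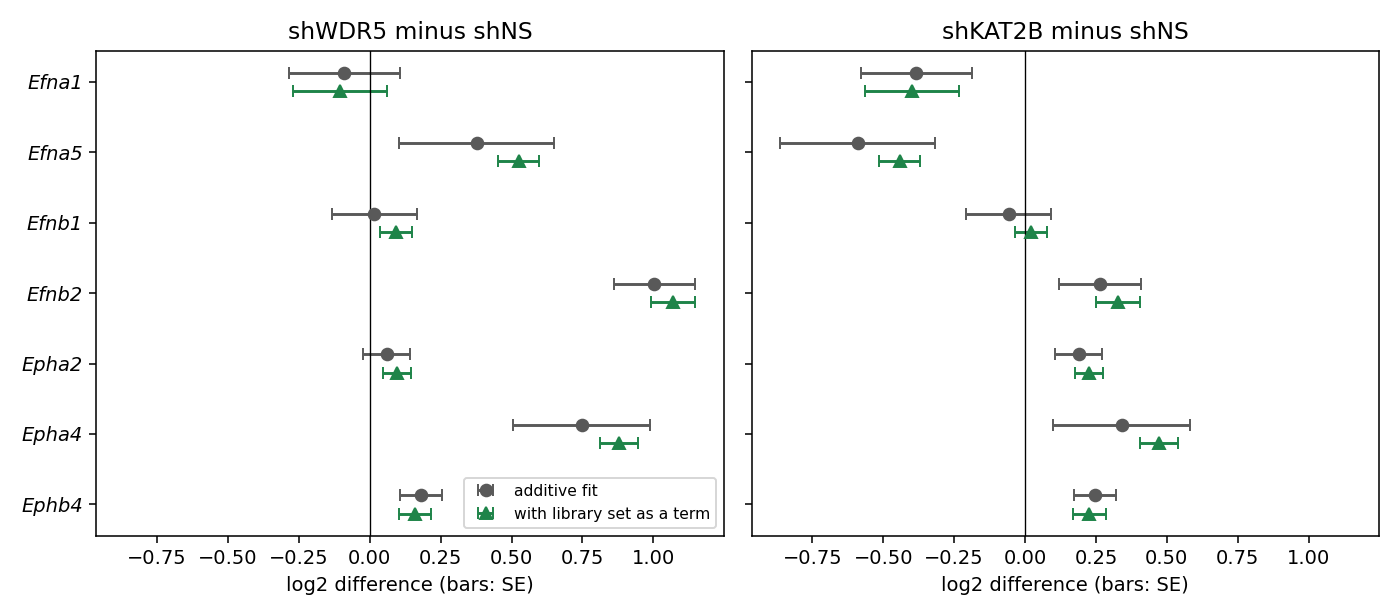
Fitted log2 differences of the 7 members kept, shWDR5 minus shNS and shKAT2B minus shNS, with the standard error as bars, from the additive fit (circles) and from the fit with library set as a term (triangles). Efnb2 in shWDR5 cells lies near 1 in both fits, and the bars of Efna5 and Epha4 shorten, from 0.27 and 0.24 to 0.07 each, when the set is a term.

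The knockdown arms were also set against each other, a comparison added after values had been seen. For shKAT2B minus shWDR5, 2 of the 7 members passed, both lower, against 22.7% of all genes. Efnb2 had 917, 671 and 996 in the shKAT2B libraries (glucagon A, glucagon B and PBS), against 1552, 1243 and 1479 in the shWDR5 libraries, a fitted difference of -0.74 ± 0.15 (log2, SE; limma adjusted p = 0.00843), and the groups did not overlap. Efna5 had 393, 214 and 217 in the shKAT2B libraries, against 709, 440 and 440 in the shWDR5 libraries, also with no overlap, and differed by -0.97 ± 0.29 (limma adjusted p = 0.0407). The Efnb2 call held with any library left out (adjusted p at most 0.042), while Efna5 lost its call in 7 of 10 cases, with adjusted p up to 0.15 (without shKAT2B PBS A). The 7 were those without shWDR5 glucagon A, glucagon B or PBS A, shKAT2B glucagon B or PBS A, shNS glucagon A, or shNS PBS B. Epha4 differed by -0.41 ± 0.26 (adjusted p = 0.299). With the set term 4 members passed, Efna5, Efnb2 and Epha4 lower and Epha2 higher (0.13 ± 0.05), against 50.4% of all genes.

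The 13 other members of the family, of 22 in all, were less well covered: 9 were on the array and 3 were kept for testing, the ligands Efna2 and Efna4 and the kinase-inactive receptor Ephb6. Efna2 passed for shKAT2B. It had 209, 377 and 322 in the shKAT2B libraries (glucagon A, glucagon B and PBS), against 181, 171, 177 and 167 in the shNS libraries (glucagon A and B, then PBS A and B). The 3 shKAT2B libraries lay above the shNS libraries, with a difference of 0.75 ± 0.19 (log2, SE; limma adjusted p = 0.0259), while the shWDR5 difference was 0.01 (adjusted p = 0.99). The call was lost without shKAT2B glucagon B or PBS A, without either shNS glucagon library, or without shNS PBS B, with adjusted p up to 0.181. Efna4, which lies beside Efna3 and Efna1 on chromosome 3, had glucagon differences of 0.11 in shWDR5, 0.31 in shKAT2B and 0.15 in shNS cells, against 1.01, 0.53 and 1.66 for Efna1. Efna3 lies between them and was not kept for testing.

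Downstream of the receptors, 47 genes of Eph and ephrin signalling in 6 lists (adaptors and cytoplasmic kinases, exchange factors and GTPase-activating proteins, GTPases and effectors, lipid kinases and phosphatases, shedding proteases, reverse signalling partners) were examined, of which 43 were on the array and 39 kept. For glucagon minus PBS 0 of the 39 passed in the limma fit, 0 had an unadjusted p below 0.05, and their differences ran from -0.12 to 0.20 on the log2 scale, with 0.923% of all genes called. With the library set as a term the count was again 0, with 3 at an unadjusted p below 0.05 and 3.35% of all genes called. A count of 0 among 39 genes does not set them apart from a share of called genes as small as this.

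For shWDR5 minus shNS, 4 of the 39 signalling genes passed and all 4 fell, against 10.9% of all genes. Stat3, a transcription factor engaged by ephrin-B reverse signalling, had 1758, 1596 and 1618 in the shWDR5 libraries (glucagon A, glucagon B and PBS), against 2702, 2288, 2539 and 2020 in the shNS libraries (glucagon A and B, then PBS A and B), and fell by 0.53 ± 0.10 on the log2 scale (SE; limma adjusted p = 0.0124). Src, a cytoplasmic tyrosine kinase recruited by Eph receptors and ephrins, had 976, 849 and 885 in shWDR5 libraries, against 1105, 1046, 1168 and 1128 in shNS libraries, and fell by 0.30 ± 0.07 (adjusted p = 0.0289). For both genes the groups did not overlap. The phosphatase gene Acp1 (fell by 0.22 ± 0.06, adjusted p = 0.0343) and the GTPase gene Rras (fell by 0.20 ± 0.05, adjusted p = 0.0251) changed less. Leaving out 1 library ended the Stat3 call in 2 of 10 cases (shWDR5 glucagon B and PBS A) and the Src call in 6 (those, shKAT2B PBS A, shNS glucagon A, and both shNS PBS libraries), with adjusted p up to 0.177. The Acp1 call was lost in 7 cases (any shWDR5 library, shKAT2B PBS A, either shNS glucagon library, or shNS PBS B) and the Rras call in 5 (either shWDR5 glucagon library, either shNS glucagon library, or shNS PBS B). The median over the 39 was -0.02, beside -0.01 over all genes.

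For shKAT2B minus shNS, 3 signalling genes rose and 2 fell, against 15.6% of all genes. Grip1, a scaffold that binds the tail of B-class ephrins, had 422, 484 and 422 in the shKAT2B libraries (glucagon A, glucagon B and PBS), against 244, 234, 278 and 232 in the shNS libraries (glucagon A and B, then PBS A and B), and rose by 0.83 ± 0.10 on the log2 scale (SE; limma adjusted p = 0.000933). The Grip1 call held with any library left out (adjusted p at most 0.0117). Adam17, a membrane protease (0.33 ± 0.07, adjusted p = 0.0157), and Limk1, a kinase that acts on the actin regulator cofilin (0.36 ± 0.10, adjusted p = 0.0445), also rose. Yes1, a kinase of the Src family, had 849, 639 and 685 in shKAT2B libraries, against 1075, 898, 949 and 969 in shNS libraries, and fell by 0.44 ± 0.10 (adjusted p = 0.0198). Stat3 fell by 0.35 ± 0.10 (adjusted p = 0.0433). Leaving out 1 library ended the call of Adam17 in 2 of 10 cases (shKAT2B glucagon B and shKAT2B PBS A), and of Yes1 in 4 (those and shNS glucagon A and shNS PBS B). The Stat3 call was lost in 7 cases (shKAT2B glucagon B or PBS A, any shWDR5 library, shNS glucagon A, or shNS PBS A) and the Limk1 call in 8 (any library but the 2 of shWDR5 glucagon), with adjusted p up to 0.179. The median over the 39 was -0.01, beside 0.01 over all genes.

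Between the arms, for shKAT2B minus shWDR5, 3 signalling genes were higher and 2 lower, against 22.7% of all genes. Src had 1269, 1278 and 1209 in shKAT2B libraries (glucagon A, glucagon B and PBS), against 976, 849 and 885 in shWDR5 libraries, and differed by 0.47 ± 0.07 (log2, SE; limma adjusted p = 0.00246). Grip1 (0.51 ± 0.10, adjusted p = 0.0073) and Rasa1, a GTPase-activating protein (0.30 ± 0.07, adjusted p = 0.0204), were also higher in shKAT2B cells. Yes1 (-0.50 ± 0.11, adjusted p = 0.011) and Pik3ca, a catalytic subunit of phosphoinositide 3-kinase (-0.26 ± 0.07, adjusted p = 0.0241), were lower. The Src and Grip1 calls held with any library left out, the Yes1 call was lost without shKAT2B PBS A (adjusted p = 0.0528), and those of Rasa1 and Pik3ca were lost in 4 cases each, all of knockdown libraries: both PBS libraries for each gene, with both glucagon A libraries for Rasa1 and both glucagon B libraries for Pik3ca (adjusted p up to 0.124). The Src-family kinases Src and Yes1 thus stood on opposite sides in this comparison.

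Some markers of hepatocytes and bile duct cells were lower in the knockdown arms. Of 8 hepatocyte markers kept, 2 were lower in shWDR5 cells (10.9% of all genes called) and 5 in shKAT2B cells (15.6%) by the same limma test, and sums over the list were 39144 to 44296 in the 3 shWDR5 libraries and 39746 to 42149 in the 3 shKAT2B libraries, against 46080 to 51728 in the 4 shNS libraries. Of 4 bile duct markers kept, 2 were lower in shWDR5 and 1 in shKAT2B cells, with medians over the 4 of -0.39 and -0.38 on the log2 scale, and sums were 2589 to 4051 in the shWDR5 libraries and 2845 to 4617 in the shKAT2B libraries, against 3614 to 5083 in the shNS libraries. Endothelial markers leaned the other way, with all 10 positive in both arms (medians 0.25 each). Of these, 0 passed for shWDR5 and 1, higher, for shKAT2B. All 9 Kupffer cell and leukocyte markers kept were also positive in both arms (medians 0.25 and 0.24), and 0 passed in either. Stellate cell and fibroblast markers were mixed in sign, with 0 of 9 passing for shWDR5 and 1, lower, for shKAT2B. The arms differed in their share of second-set libraries, so these differences mix hairpin with library set. With the set as a term, endothelial medians were 0.15 in shWDR5 and 0.16 in shKAT2B cells, with all 10 markers again positive. Kupffer cell and leukocyte medians were 0.14 and 0.13, with 1 negative marker in each arm. Stellate cell and fibroblast medians were 0.20 and 0.24, with 2 and 3 negative. In that fit 36.8% and 41.5% of all genes were called, with p-values that are too small. Hepatocyte markers passing were 5 and 8 of 8, and bile duct markers 3 and 2 of 4, all lower. Endothelial markers passing were 2 and 4, and Kupffer cell and leukocyte markers 2 and 4, all higher. Stellate cell and fibroblast markers passing were 3 higher in shWDR5, and 5 higher and 1 lower in shKAT2B. The part of any of these cells in the differences of Efnb2, Efna2, Src or Stat3 was not tested.

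The genes whose levels followed Efna1 most closely over the 10 libraries were Nfil3 (Pearson r 0.98), Tob1 (0.96), Rasgef1b (0.96), Slc25a25 (0.96) and Adamts1 (0.95), with r of 0.955 to 0.998 in the 6 libraries of the second set. These values describe points that share arms, treatment and library sets, and carry no test. These genes were picked for their r in the same libraries, so a high r and a like order of arms largely follow from the choice. Nfil3, a basic leucine zipper repressor, had glucagon differences of 0.90 in shWDR5, 0.40 in shKAT2B and 1.099 in shNS cells, the order of the arms for Efna1. Rasgef1b, an exchange factor for Ras-family GTPases, had 1.91, 1.5003 and 2.31 in the same arms, and Adamts1, a secreted metalloprotease, 1.01, 0.78 and 1.27. Slc25a25, a mitochondrial carrier, had 0.92, 0.94 and 1.42, and Tob1, an antiproliferative regulator, 0.17, 0.13 and 0.34. Within the family, r with Efna1 was -0.78 for Epha2, 0.48 for Epha4, 0.27 for Efna5, 0.12 for Ephb4, -0.30 for Efnb2 and -0.36 for Efnb1, and 0.56 for Efna4, the neighbouring ligand gene (0.70 in the second set).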

How the data were processed

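Per the labels, RNA of primary mouse hepatocytes was hybridised to Affymetrix arrays. The deposited table holds intensity on a linear scale (4.47 to 22694, library medians 282.1 to 298.2). Per the submitters' processing notes, the software was Expression Console 1.1.1; the normalization method and genome build are not given in the sources used here. Of 26913 features, 17873 carried 1 gene symbol. Where a gene had several, the feature of highest mean stood for it. The scale of analysis was log2(intensity + 1), without the 30 percent of genes that had the lowest means. Precision is limited by the number of arrays.

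An additive model of arm and treatment was fitted in R 4.3.3 with limma 3.58.1 (lmFit, eBayes with trend, 6 residual degrees of freedom, 5 with library set). Groups of 1 library were assumed to vary like the others. The test was two-sided with Benjamini-Hochberg adjustment over 11480 genes, called below 0.05. It was also run on simulated data, and that outcome is not reported here and is not used as support for the p-values. Tables and figures used matplotlib 3.10.9, numpy 2.4.6, pandas 2.3.3 and Python 3.11.15. The labels do not say that A and B are separate animals, so the p-values rest on the spread among these libraries, which may be technical.

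Genes named are the 9 members, the rest of the family, up to 4 called signalling genes per direction and comparison, the 5 genes most like Efna1, and the targets. Members and lists were chosen with earlier results of these data known, and library sets were read from the residuals of these libraries. Alternatives were other normalizations, filters, pseudocounts, feature rules, no trend, replicate and set terms, and leaving out libraries. A minus B differences correlated at 0.72 to 0.84 between the 4 groups of 2 libraries, so the letters pair those. The lone PBS libraries, lettered A, were correlated with each glucagon library of their arm after the mean shNS glucagon difference was added to them. The correlation was higher with glucagon B (0.9956 against 0.9824 with A in shWDR5, 0.9958 against 0.9757 in shKAT2B).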

Additional observations from a re-analysis of the deposited data

Results flagged for a closer look

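For 3 members, hairpin differences had opposite signs under glucagon and under PBS in every library compared, and none of these differences between treatments was tested. The same rule was not run over all genes, so no share of all genes stands beside this count. Each PBS difference has 1 knockdown library. For Efna1, shWDR5 minus shNS was -0.39 under glucagon and 0.25 under PBS, -0.645 apart on the log2 scale. For Efna1, shKAT2B minus shNS was -0.84 under glucagon and 0.28 under PBS, -1.13 apart. Both Efna1 items compare its glucagon difference between arms, for which it was chosen, so they are a description. For Efnb1, shKAT2B minus shNS was 0.08 under glucagon and -0.26 under PBS, 0.349 apart; the PBS difference was -0.06 against shNS PBS B, of the same library set, and -0.47 against shNS PBS A. For Ephb3, a gene below the filter, shWDR5 minus shNS was -0.13 under glucagon and 0.08 under PBS, -0.218 apart.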

How the results depend on the processing

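With a replicate block (libraries paired by letter), 2 members were called for shWDR5, Epha4 joining at 0.64 (limma adjusted p = 0.0135), and 2 for shKAT2B, Efna5 at -0.72 (0.00651) and Ephb4 at 0.26 (0.0216). This block put the lone PBS library of each knockdown arm with the A libraries, although it lies in the second set with the B libraries. Signalling genes called were then 8 and 12 of 39, where 26.7% and 29.6% of all genes were called for shWDR5 and shKAT2B. With library set as a term the counts were 4 and 5 members and 11 and 14 signalling genes (36.8% and 41.5% of all genes). On the second set alone, where no group is replicated, they were 4 and 4 members and 10 and 11 signalling genes (28% and 37.3% of all genes), and the Efna1 glucagon difference was 1.06, against 1.15 in all libraries. Called members for shKAT2B were 1 of 7 after quantile normalization (Epha2; 18.8% of all genes called), median-centring (Epha2; 18.4%), leaving out the lowest 50 percent (Ephb4; 18%) or no trend (Ephb4; 15.5%). For shWDR5 they were 2 after median-centring, with Epha4 joining (12.2% of all genes). Signalling genes called were 2 for shWDR5 without trend (10.4% of all genes) and 3 for shKAT2B without a filter (10.9%). Leaving out 1 library gave 1 to 2 members for shWDR5, 0 to 1 for shKAT2B, 0 to 4 and 1 to 6 signalling genes, 0 for glucagon, and Efna1 glucagon differences of 1.04 to 1.40. The shKAT2B member was Ephb4 without shKAT2B glucagon A. Without shKAT2B PBS A it was Efna1, which carries no weight as a test, since its levels in the arms entered its choice. No called difference changed sign in these alternatives. Of the values of single genes under them, 679 stayed the same, 27 newly passed and 76 lost their call. The other 12, none called, changed sign: shWDR5 differences of Efna1, Efnb1 and Epha2 and shKAT2B differences of Efnb1. For hairpin differences, the same meant direction and side of the threshold. For glucagon differences of members, not tested, it meant less than the pooled replicate SD from the main fit, so direction could change. Hairpin differences of Efna1 are among these counts. Apart from left-out libraries, the lost calls were Acp1 and Rras for shWDR5 and Limk1 and Stat3 for shKAT2B, under other normalizations, no filter, no trend or (Acp1) the mean of a gene's features. The cause of these shifts was not tested. With 1 PBS library in each knockdown arm, the glucagon difference there has no spread of its own on the PBS side.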
